A study of Mus musculus with 15 samples.

Results

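The Hox genes and the related Cdx1 and Cdx2 were followed across 15 single-colour arrays of mouse colon adenoma and normal colon epithelium. Members were all non-control probes whose gene name on the array begins with Hoxa, Hoxb, Hoxc or Hoxd and a digit, together with Cdx1 and Cdx2. This gave 40 genes (11 Hoxa, 10 Hoxb, 8 Hoxc and 9 Hoxd genes and both Cdx genes) carried by 51 probes, of 27752 genes and other features on 41174 probes.

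Hox genes encode transcription factors that bind DNA through a homeodomain. They lie in clusters in which the order of the genes along the chromosome follows the order of their expression along the head-to-tail axis, so that genes with low numbers are expressed furthest forward and the genes of groups 9 to 13 towards the tail. The hindgut, from which the colon forms, expresses posterior Hox genes, and adult gut keeps part of this positional pattern. Cdx1 and Cdx2 are caudal-type homeodomain factors that are known to activate Hox genes in the embryo and to maintain the identity of the intestinal epithelium.

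Per the growth protocol the mice were male Apc+/Min-FCCC animals, aged 6-8 weeks at colonoscopy, on a C57BL/6J background where the labels give one, which carry 1 mutant Apc allele and develop colon adenomas; they were sorted by that examination into tumor-bearing and tumor-free mice. The 4 groups were adenoma from untreated mice (3 arrays), adenoma from mice given sulindac at 300 ppm with atorvastatin at 100 ppm in the chow for 7 days (4 arrays), normal epithelium of tumor-free mice given atorvastatin at 100 ppm for 7 days (4 arrays), and normal epithelium of tumor-bearing mice labelled with atorvastatin for 7 days (4 arrays). The labels of this last group give the tissue and the drug but no strain, sex or age, and the growth protocol assigns tumor-bearing mice to no drug or to both drugs; the labels were followed. No epithelium array came from an untreated mouse, so the adenoma and epithelium groups differ in drug as well as in tissue, and these cannot be told apart. Cells were taken by laser microdissection and their RNA was put through repeated linear amplification, and nothing in the labels gives the position along the colon from which a sample came.

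A level is log2 of the background-subtracted spot signal minus the 75th percentile of its own array, so that 0 is the brightness of that percentile. Levels can be compared between arrays for 1 probe but not between probes. "Well above background" is the scanner software's own call for a spot. Between 56.5% and 75.5% of probes on an array were well above background. Within groups, 6 pairs of arrays differed by less than their spot noise (SD of the log2 difference between 0.086 and 0.17) and were counted once each: untreated adenoma arrays 1 and 2, treated adenoma arrays 2 to 4, tumor-free arrays 3 and 4, and tumor-bearing arrays 1 and 3. This left 10 samples, 2 for each adenoma group and 3 for each epithelium group. Tumor-free array 2 and tumor-bearing array 2, which carry different group labels, were almost as alike (SD 0.183), and the main results are given with and without this pair. Tumor-bearing array 4 had the fewest probes well above background (56.5%) and correlated least with its group (r from 0.906 to 0.914). In the fit with array weights its weight was 0.27, where the next lowest sample had 0.79. These values cover all probes or genes, not only the members. All 10 epithelial markers examined (among them Epcam and Cdh1) were well above background on every array. The samples are mixtures, and fewer cells of a type and less RNA per cell cannot be told apart.

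The group 13 genes, which mark the tail end of the axis, have related sequences, and their probes show how separately they can be read. The following 60-base probes from the array design all lie in the coding part for the homeodomain, and capitals mark the bases that all 3 share in an alignment without gaps.
Hoxa13: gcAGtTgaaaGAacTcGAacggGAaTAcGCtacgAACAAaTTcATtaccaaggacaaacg
Hoxb13: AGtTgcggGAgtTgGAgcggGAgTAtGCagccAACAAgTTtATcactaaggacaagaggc
Hoxd13: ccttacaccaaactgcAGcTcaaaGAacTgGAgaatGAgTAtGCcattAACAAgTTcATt
In the mm7 coordinates of the array files the Hoxa13 probe lies at chr6:52222385-52222444 (minus strand), the Hoxb13 probe at chr11:96304167-96304226 (plus strand) and the Hoxd13 probe at chr2:74513664-74513723 (plus strand). They share 23 of the 44 bases that all 3 cover, and in pairs they were 63.6% (Hoxb13 and Hoxd13), 69.0% (Hoxa13 and Hoxb13) and 71.7% (Hoxa13 and Hoxd13) identical. The longest run shared by probes of any pair of different member genes was 22 bases, between Hoxa9 and Hoxb3, and the next was 14 bases.

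The colon samples read the Hoxa cluster most completely. In all, 17 genes had a probe well above background on all 15 arrays: 10 of the 11 Hoxa genes, 3 Hoxb genes (Hoxb3, Hoxb6 and Hoxb9), Hoxc4, Hoxd4 and both Cdx genes. A further 19 genes were well above background on some arrays. Hoxb1, Hoxc8, Hoxc12 and Hoxc13 were well above background on none. Over the 10 samples, the probes read on all arrays spanned from 1.54 (Hoxc4) to 8.23 (Cdx2) log2 units, with a median span of 2.84. Hoxb13 spanned 12.5 and Hoxd13 12.9 log2 units, values that include arrays on which they were not well above background.

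**Figure D1:**
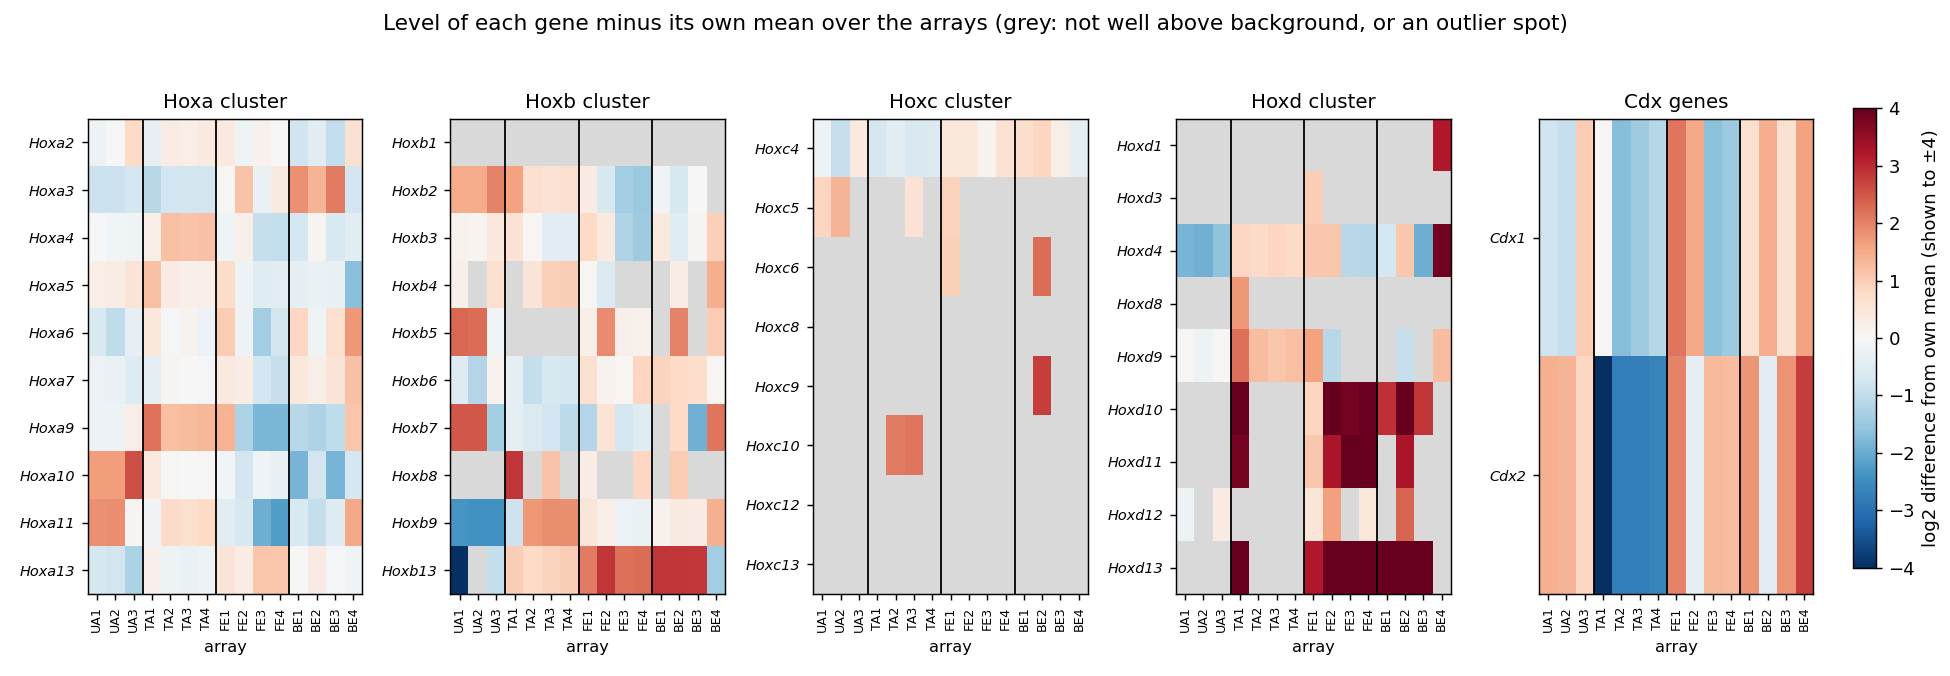
Level of each gene minus its own mean over the arrays, in log2 units, for genes of the Hoxa, Hoxb, Hoxc and Hoxd clusters in order of number and for Cdx1 and Cdx2. Columns are the arrays of untreated adenoma (UA), treated adenoma (TA), tumor-free epithelium (FE) and tumor-bearing epithelium (BE), with the array number; grey cells are not well above background or hold an outlier spot. The Hoxa genes shown are read throughout and the Hoxc cluster mostly not, while Hoxd10, Hoxd11 and Hoxd13 are read together on TA1, on FE1 to FE4 and on BE2.

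The first comparison asked which members differed between adenoma and normal epithelium, taking the mean of both adenoma groups against the mean of both epithelium groups. Hoxa10 and Hoxb2 were higher and Cdx2 was lower in adenoma. These 3 were the members called among 27 tested, or 11.1%, by limma at a Benjamini-Hochberg adjusted p under 0.05, while 21.8% of the 18913 genes tested were called. Of the 27, 2 were higher and 1 lower, against 9.14% of all genes higher and 12.6% lower. A gene was tested when no array of 1 of the groups fell short of the call well above background; the other 13 (Hoxb1, Hoxb8, 7 of the Hoxc genes, Hoxd1, Hoxd3, Hoxd8 and Hoxd12) were not tested. The median difference of the tested members was -0.57, against -0.17 for all genes tested, with 12 members above 0 and 15 below.

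Cdx2, the caudal-type factor that specifies intestinal epithelium, was read on every array. Its level was 3.90, 3.85 and 3.29 on the untreated adenoma arrays, -2.96, -0.30, -0.29 and -0.20 on the treated adenoma arrays, 4.46, 2.07, 3.77 and 3.72 on the tumor-free arrays and 4.24, 2.04, 4.26 and 5.27 on the tumor-bearing arrays. The untreated adenomas lay inside the range of the epithelium, and all treated adenoma arrays lay below every other array. The difference between adenoma and epithelium was -2.65 ± 0.76 (SE) log2 units, with an adjusted p of 0.0337 in the limma fit over 4 adenoma and 6 epithelium samples. The call was lost (adjusted p from 0.0633 to 0.136) without untreated adenoma array 3, without untreated adenoma arrays 1 and 2, without treated adenoma array 1, without tumor-free array 1, without tumor-free arrays 3 and 4, or without tumor-bearing arrays 1 and 3. Without the pair alike across groups it was kept at an adjusted p of 0.00695 in limma. Within the 3 scan dates that held both tissues the difference was 0.76, -3.82 and -5.57, and the date with the opposite sign held an untreated adenoma and no treated one. The first 2 of these dates are not independent, here and for the members below. They hold the near-identical untreated adenoma arrays 1 and 2 and tumor-bearing arrays 1 and 3. No tumor-free array was scanned on any of the 3 dates.

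Cdx1, its close relative, was read on every array at between -4.99 and -1.15. It was at -4.10, -4.22 and -2.28 in untreated adenoma and -3.25, -4.99, -4.71 and -4.45 in treated adenoma. In epithelium it was at -1.15, -1.79, -4.94 and -4.75 in tumor-free and -2.64, -1.84, -2.68 and -1.69 in tumor-bearing mice. The groups overlapped, and the difference of -1.27 ± 0.73 log2 units (adjusted p = 0.234 in limma) was not called.

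Among genes of the anterior groups, Hoxb2, a hindbrain patterning gene in the embryo, was higher in adenoma. It was at -1.42, -1.43 and -0.91 in untreated adenoma and at -1.28, -2.23, -2.31 and -2.27 in treated adenoma. In tumor-free epithelium it was at -2.56, -3.53, -4.30 and -4.39, and in tumor-bearing epithelium at -3.03, -3.53, -2.91 and, not well above background, -7.43. Every adenoma array was above every epithelium array. Among all genes tested, samples of both tissues did not overlap for 17.2%. The difference was 2.59 ± 0.81 (SE) log2 units, with an adjusted p of 0.0456 in limma. The call was lost without the pair alike across groups (adjusted p = 0.0747 in limma), and it was lost with adjusted p from 0.0787 to 0.145 without untreated adenoma array 3, untreated arrays 1 and 2, treated array 1, treated arrays 2 to 4, tumor-free array 2 or tumor-free arrays 3 and 4. Within the 3 scan dates with both tissues the difference was 1.87, 1.55 and 5.19. A second probe named Hoxb2 lies on the opposite strand and was kept apart; it was well above background on tumor-free array 2 and tumor-bearing array 2, the pair of arrays that are alike, and on no other.

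Of the remaining genes of groups 2 to 8 that were tested, none was called, and their differences ran from -1.48 (Hoxa3) to 0.92 (Hoxa5) log2 units. A second Hoxa3 probe overlapped between the tissues, at -4.02 to -1.70 in adenoma and -4.11 to -1.44 in epithelium. Hoxb6 was at -4.13, -4.76 and -3.45 in untreated adenoma, between -4.57 and -3.97 in treated adenoma, between -3.52 and -2.73 in tumor-free and between -3.52 and -2.73 in tumor-bearing epithelium. Its difference was -0.94 ± 0.33 log2 units (adjusted p = 0.0648 in limma). A second Hoxb6 probe did not follow the first: it was at -2.33, -2.46 and -4.74 in untreated adenoma, where its lower value was on the array on which the first probe was highest.

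Hoxa10, a posterior gene of the Hoxa cluster, separated the tissues most steadily. It was at 2.92, 2.91 and 3.81 in untreated adenoma and at 1.63, 1.30, 1.27 and 1.29 in treated adenoma. In epithelium it was at 1.15, 0.51, 1.08 and 0.95 in tumor-free and at -0.62, 0.51, -0.60 and 0.56 in tumor-bearing mice. No adenoma array overlapped an epithelium array, and untreated adenoma was above treated adenoma on every array. The difference between tissues was 1.89 ± 0.36 (SE) log2 units, a 3.70-fold higher signal, with an adjusted p of 0.00471 in limma. The call was kept under all 30 alternatives computed for it, with adjusted p up to 0.0282, among them the fit without the pair alike across groups (0.0218). Within the 3 scan dates with both tissues the difference was 2.98, 2.87 and 0.75.

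Its neighbours in the cluster were not called. Hoxa9 differed by 1.34 ± 0.69 log2 units (adjusted p = 0.187 in limma) and Hoxa11 by 1.17 ± 0.60 (adjusted p = 0.182). Hoxa11 was at 3.23, 3.24 and 1.50 in untreated adenoma, 1.26, 2.17, 2.02 and 2.18 in treated adenoma, 0.93, 0.74, -0.56 and -0.83 in tumor-free and 0.77, 0.44, 0.87 and 2.90 in tumor-bearing epithelium. Tumor-bearing array 4 lay within the range of the adenomas, above all other epithelium arrays. Within the 3 scan dates with both tissues Hoxa11 differed by 2.62, 1.38 and -0.73. Hoxa7 had levels from 2.50 to 4.61, and its difference of -0.57 ± 0.35 was not called (adjusted p = 0.275).

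**Figure D2:**
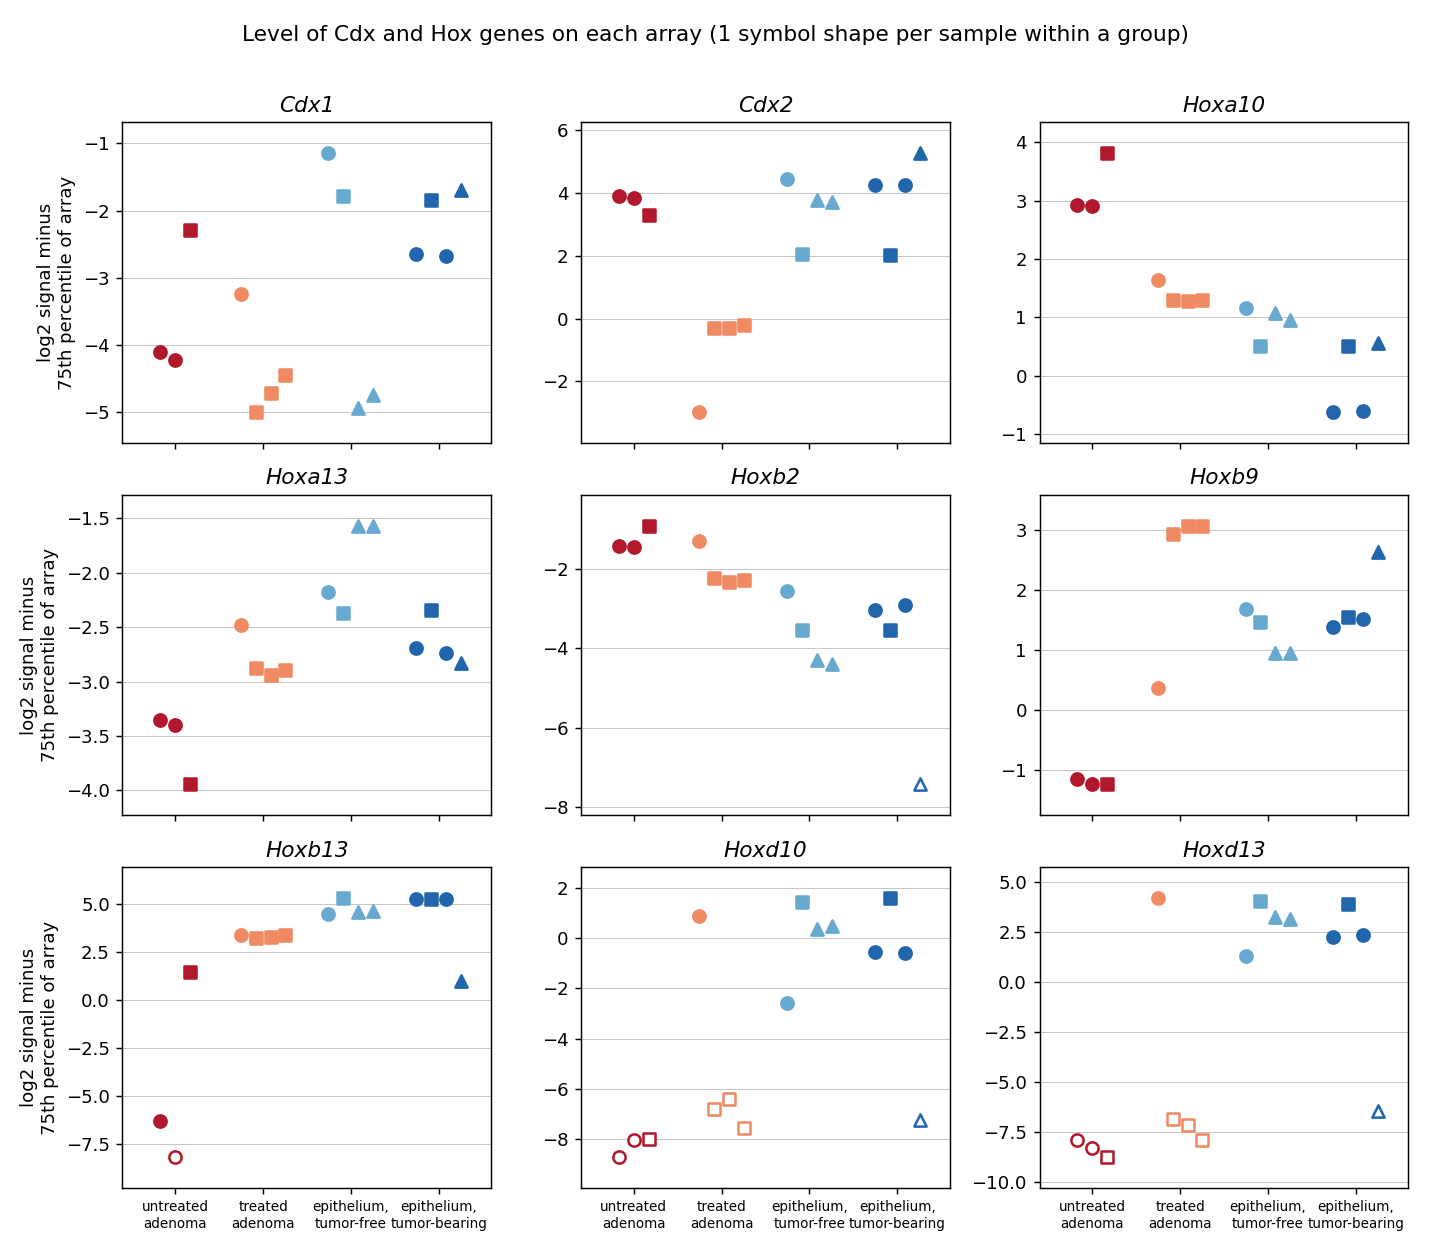
Level of Cdx1, Cdx2 and 7 Hox genes on each array (log2 signal minus the 75th percentile of the array; each panel has its own axis). Filled symbols are well above background and open symbols are not; arrays of 1 symbol shape within a group are counted as 1 sample. Hoxa10 is highest in untreated adenoma, at 2.91 to 3.81, Cdx2 is lowest in treated adenoma, and Hoxd10 and Hoxd13 are open for all untreated adenomas, for treated arrays 2 to 4 and for tumor-bearing array 4.

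In the posterior part of the Hoxd cluster, Hoxd10, Hoxd11 and Hoxd13 were well above background in some samples and not in others, in a pattern that Hoxd12 did not follow. Hoxd13, the last gene of its cluster, was not well above background on the 3 untreated adenoma arrays (-7.89, -8.31 and -8.74). In treated adenoma it was at 4.18 on array 1 and not well above background on arrays 2 to 4 (-6.86, -7.14 and -7.88). It was well above background on all 4 tumor-free arrays, at 1.30, 4.06, 3.27 and 3.16, and on tumor-bearing arrays 1 to 3, at 2.28, 3.89 and 2.35, but not on tumor-bearing array 4 (-6.43). The probe whose sequence is shown above, which is another Hoxd13 probe, was well above background on the same 8 arrays and on no other. The fitted difference between adenoma and epithelium was -6.38 ± 2.37 log2 units and was not called (adjusted p = 0.0812 in limma). It was called without tumor-bearing array 4 (adjusted p = 0.0158 in limma), which departed from the other samples of its group. The 2 treated adenoma samples departed from each other, and neither can be taken as the typical one. The difference was -9.25 without treated array 1 and -3.51 without treated arrays 2 to 4, fits that each leave 1 treated sample.

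Hoxd10, Hoxd11 and Hoxd12, other posterior genes of the cluster, were chosen for description after their values were seen. Hoxd10 was not well above background on any untreated adenoma array, was at 0.90 on treated array 1 and not above background on treated arrays 2 to 4, and was at -2.57, 1.44, 0.38 and 0.51 on the tumor-free arrays. It was at -0.54, 1.59 and -0.58 on tumor-bearing arrays 1 to 3 and not well above background on array 4, so it was read on exactly the 8 arrays on which Hoxd13 was. Hoxd11 was read on 6 of these 8 arrays, at -1.84 on treated array 1, at -4.59, -2.42, -1.55 and -1.56 on the tumor-free arrays and at -2.40 on tumor-bearing array 2. Their differences of -4.45 ± 1.87 (Hoxd10, adjusted p = 0.116 in limma) and -2.87 ± 1.30 (Hoxd11, adjusted p = 0.14) were not called. Hoxd12, which lies between Hoxd11 and Hoxd13, was dim and followed another pattern: it was well above background on untreated adenoma arrays 1 and 3 (-6.41 and -5.87), on no treated array, on tumor-free arrays 1, 2 and 4 (-5.74, -4.59 and -5.76) and on tumor-bearing array 2 (-3.89). It was not tested.

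Hoxd4 and Hoxd9, further forward in the cluster, did not share the pattern of Hoxd13 either. Hoxd4 was well above background on all 15 arrays, including tumor-bearing array 4, where it was highest at 0.44. The Hoxd9 probe used in the fit was read on all 7 adenoma arrays at -4.48 to -2.07 and on tumor-free arrays 1 and 2 and tumor-bearing arrays 2 and 4. The second Hoxd9 probe was read on no adenoma array, on all 4 tumor-free arrays and on tumor-bearing array 2, which are 5 of the 6 arrays that read Hoxd11. The 2 probes of Hoxd9 therefore gave opposite pictures of adenoma, and which of them follows the main transcript was not tested.

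Because Hoxd10, Hoxd11 and Hoxd13 appeared together, the 150 bases before their starts in the RefSeq promoter table (GRCm38.p6, plus strand) are shown. Capitals mark the letters TTTATG, 1 form of the known Cdx recognition sequence, or their complement CATAAA. Other forms were not searched, so a stretch without capitals may still hold 1 of them.
Hoxd13: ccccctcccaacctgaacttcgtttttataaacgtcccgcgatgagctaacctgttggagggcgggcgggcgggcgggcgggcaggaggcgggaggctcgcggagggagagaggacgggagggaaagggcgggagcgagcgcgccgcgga
Hoxd11: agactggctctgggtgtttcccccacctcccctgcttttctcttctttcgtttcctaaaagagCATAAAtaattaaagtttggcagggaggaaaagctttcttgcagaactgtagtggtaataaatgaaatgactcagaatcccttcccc
Hoxd10: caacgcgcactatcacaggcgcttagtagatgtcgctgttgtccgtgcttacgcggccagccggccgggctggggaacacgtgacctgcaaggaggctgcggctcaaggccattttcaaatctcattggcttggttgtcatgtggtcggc
These stretches are chr2:74668075-74668224 for Hoxd13, chr2:74679408-74679557 for the more upstream of 2 Hoxd11 starts and chr2:74691741-74691890 for Hoxd10. The Hoxd11 stretch holds 1 match, and the table's windows (250 bases before to 50 after the start) of Hoxd13, of Hoxd10 and of the other Hoxd11 start hold none. Of 25 listed windows of member genes, 5 held the letters on either strand, against 11.9% of all 32851 windows in the table. The full windows of Hoxd13 and Hoxd10 were rich in G and C, at 74.3% and 62.7%, and that of the Hoxd11 start shown was at 45.7%. A match of 6 letters is a description of the sequence and not of binding.

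Of the other posterior genes, Hoxb13 is normally expressed in the hindgut and prostate. It was at -6.31 on untreated adenoma array 1, not well above background on array 2 (-8.16) and at 1.44 on array 3. It was at 3.39, 3.19, 3.28 and 3.37 in treated adenoma, 4.49, 5.27, 4.59 and 4.63 in tumor-free epithelium and 5.26, 5.25, 5.23 and 1.00 in tumor-bearing epithelium. All adenoma arrays lay below all epithelium arrays except tumor-bearing array 4, which lay below untreated adenoma array 3 and all treated adenoma arrays. The difference of -4.09 ± 1.47 log2 units was not called (adjusted p = 0.0737 in limma), and it was called without tumor-bearing array 4 (adjusted p = 0.0333). The difference was -6.26 without untreated adenoma array 3 and -1.92 without untreated adenoma arrays 1 and 2, fits that each leave 1 untreated sample. Within the 3 scan dates with both tissues it was -11.56, -7.61 and 2.20, and the last of these dates held tumor-bearing array 4.

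Hoxa13, the last gene of the Hoxa cluster, was read on every array within a narrow range. It was at -3.35, -3.40 and -3.94 in untreated adenoma, -2.48, -2.88, -2.94 and -2.90 in treated adenoma, -2.18, -2.37, -1.58 and -1.57 in tumor-free and -2.69, -2.35, -2.74 and -2.83 in tumor-bearing epithelium. Untreated adenoma was the lowest group, below all other arrays, and treated adenoma overlapped tumor-bearing epithelium. The difference between tissues was -0.84 ± 0.30 log2 units (adjusted p = 0.0749 in limma). Its other probe, shown above, was likewise lowest on the untreated adenoma arrays, at -3.90 to -3.65.

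Hoxb9 was at -1.15, -1.24 and -1.23 in untreated adenoma, 0.37, 2.94, 3.07 and 3.07 in treated adenoma, 1.69, 1.47, 0.96 and 0.95 in tumor-free and 1.38, 1.56, 1.51 and 2.63 in tumor-bearing epithelium. Untreated adenoma lay below every other array, and the treated adenomas lay on either side of the epithelium. Its second probe was also lowest in untreated adenoma, at -3.32 to -1.93 against -0.67 to 1.33 on all other arrays. Within treated adenoma this probe gave the reverse order, at 0.49 on array 1 and -0.67, -0.51 and -0.60 on arrays 2 to 4. The difference between tissues was -1.38 ± 0.51 log2 units (adjusted p = 0.0787 in limma), and within the 3 scan dates with both tissues it was -2.62, -1.95 and 0.31.

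**Figure D3:**
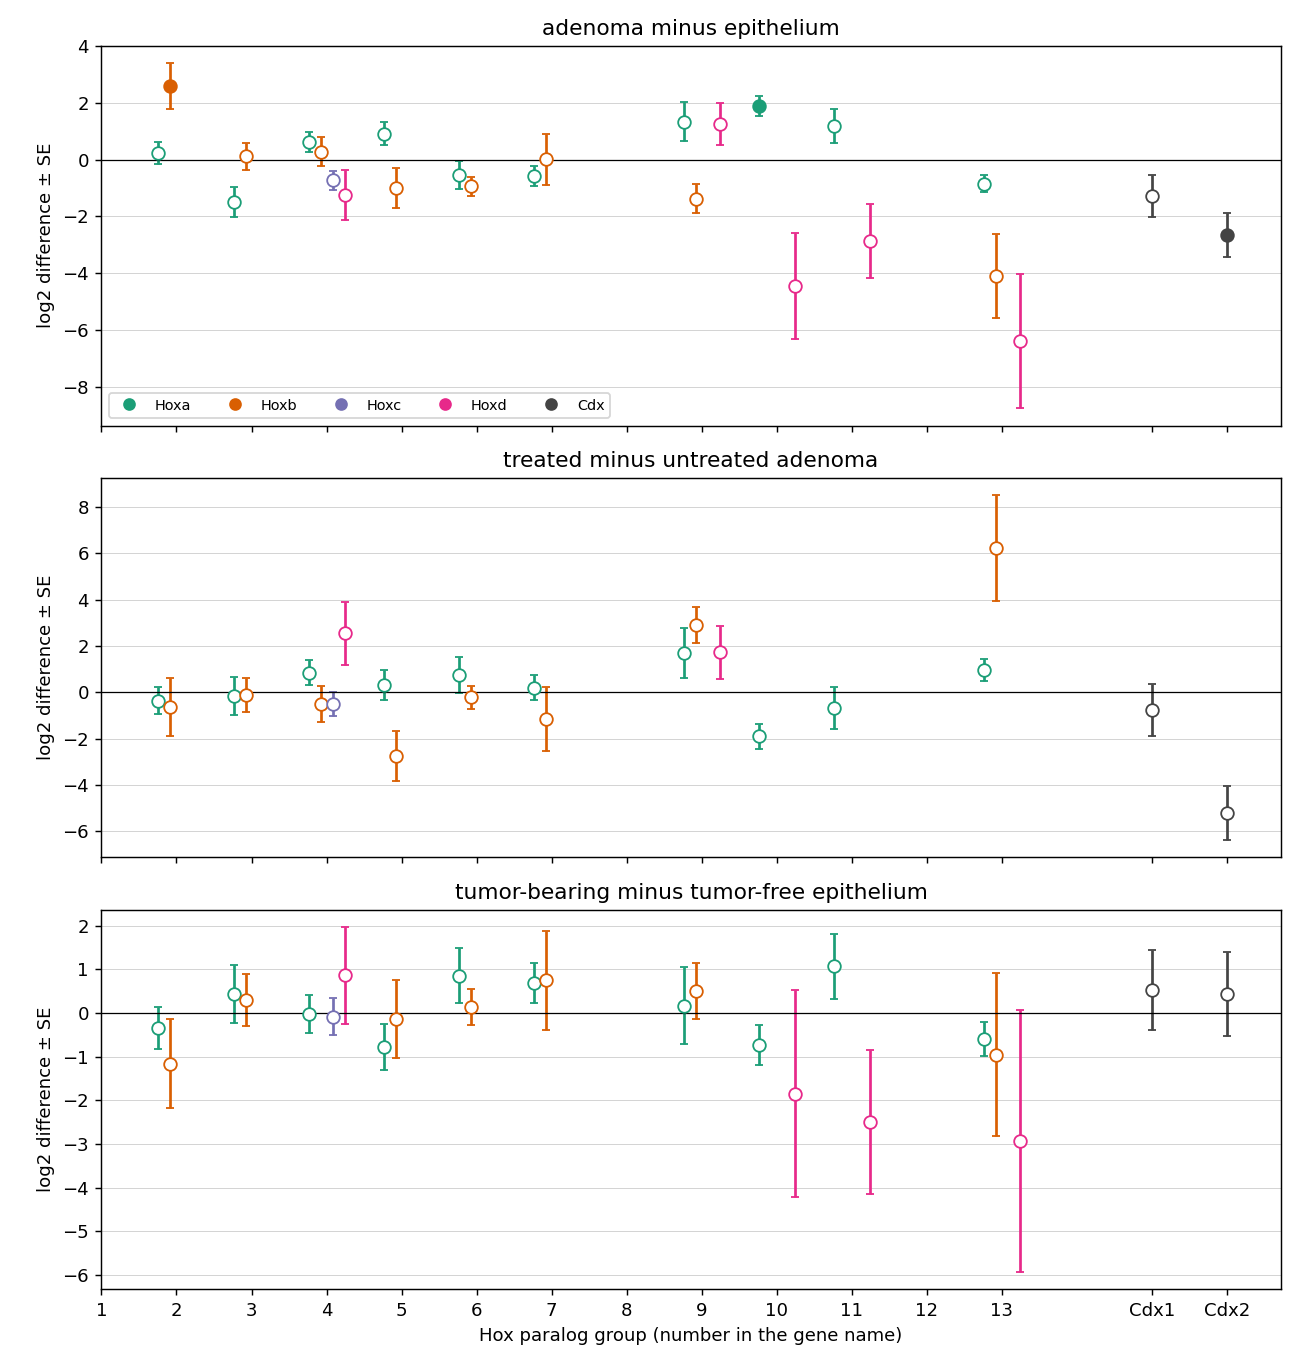
Log2 difference ± SE of members tested in 3 comparisons, placed by its number within the Hox clusters, with Cdx1 and Cdx2 at the right. Filled symbols passed an adjusted p under 0.05 in limma, which only Hoxa10, Hoxb2 and Cdx2 did, in adenoma minus epithelium; the longest error bars are those of Hoxd13, Hoxd10 and Hoxb13.

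The second comparison set adenoma of mice given sulindac and atorvastatin against untreated adenoma, with 2 samples a group. No member was called among 24 tested, while 0.216% of 17629 genes tested were called by limma; 5 members and 11.8% of all genes had an unadjusted p under 0.05. The members with the lowest moderated t were Cdx2, at -5.20 ± 1.18 log2 units (adjusted p = 0.146), and Hoxa10, at -1.90 ± 0.55 (adjusted p = 0.247). Those with the highest were Hoxb9, at 2.91 ± 0.79 (adjusted p = 0.225), and Hoxb13, at 6.23 ± 2.28 (adjusted p = 0.338). For these 4 genes every treated array lay on 1 side of every untreated array, as was so for 46.6% of all genes tested when samples are compared. With every array taken as its own sample 5 members were called (Cdx2, Hoxa10, Hoxb13, Hoxb5 and Hoxb9), a count that treats near-identical arrays as independent. In the same fit 2410 of the 17629 genes tested were called.

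Within the 2 scan dates that held both adenoma groups, Cdx2 differed by -6.81 and -3.54 and Hoxb9 by 1.61 and 4.30. Hoxa10 differed by -1.28 and -2.53 on the same dates. Treated adenoma array 1 and the sample of arrays 2 to 4 differed widely from each other. Array 1 was the lowest for Cdx2 and the only adenoma array with Hoxd10, Hoxd11 or Hoxd13. Of the treated arrays it was the lowest on the Hoxb9 probe used in the fit but the highest on the second Hoxb9 probe. Hoxb5 was not well above background on any treated array and was on all 3 untreated arrays, at -2.96, -3.02 and -5.36. Its mean was at least 4.30-fold lower with treatment (adjusted p = 0.369 in limma), a bound that rests mainly on untreated arrays 1 and 2. Such bounds set the mean of the brighter group against, on each array of the dimmer group, the lowest signal called well above background or the probe's own signal, whichever is higher.

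The third comparison set normal epithelium of tumor-bearing mice against that of tumor-free mice, with 3 samples a group. All tumor-free arrays lay on slides and scan dates that held no other group, so mouse group, slide and scan date cannot be told apart here. No member was called among 25 tested, and 0% of the 17648 genes tested were called by limma; 463 genes (2.62%) and no member had an unadjusted p under 0.05. Among the extremes by moderated t were Hoxa10 (-0.74 ± 0.45), Hoxa7 (0.69 ± 0.45) and Hoxa11 (1.06 ± 0.75 log2 units), each with an adjusted p of 0.997. Hoxa7 was at 3.81, 3.72, 2.67 and 2.50 in tumor-free and 3.85, 3.68, 3.93 and 4.61 in tumor-bearing epithelium, with overlapping ranges. Hoxd13 differed by -2.93 ± 3.00; this error is pooled over all groups, and the SD of its samples was 8.12 in treated adenoma and 5.56 in tumor-bearing epithelium.

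Each adenoma group was also set against tumor-bearing epithelium; these comparisons share the epithelium samples. Untreated adenoma had 2 members called of 24 tested, where 11.6% of 17403 genes tested were called. Hoxa10 was higher by 3.21 ± 0.51 log2 units (adjusted p = 0.00365 in limma) and Hoxb9 was lower, at -3.09 ± 0.72 (adjusted p = 0.0232). The Hoxb9 call was lost without the pair alike across groups (adjusted p = 0.0602), without untreated adenoma array 3 (0.146) and without arrays 1 and 2 (0.12), and the Hoxa10 call without array 3 (0.0549), all in limma. Without tumor-bearing array 4, 7 members were called: Hoxa10, Hoxa3, Hoxb13, Hoxb2, Hoxb9, Hoxd10 and Hoxd13. All genes called also rose without this array, to 3989 of 18027 tested from 2015 of 17403. The Hoxa3 probe used in the fit was lower in untreated adenoma, and a second Hoxa3 probe went the other way. That probe was at -2.50 and -3.36 on untreated arrays 1 and 3, and at -4.09 to -3.44 on the 4 tumor-bearing arrays. Within the scan dates with both groups, Hoxa10 differed by 2.98 and 3.51 and Hoxb9 by -2.62 and -2.75. These 2 dates held untreated adenoma arrays 1 and 2, which count as 1 sample, so the values are not independent. Hoxd13 and Hoxd10 were not tested here, since they were read on 3 of 4 tumor-bearing arrays and on no untreated adenoma array. By the bound described above they were 96.3-fold and 24.1-fold lower in untreated adenoma, and Hoxd11, read on 1 tumor-bearing array, 2.49-fold. The tumor-bearing means include signals that were not well above background, so these values are not strict lower limits.

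Treated adenoma had 1 member called of 22 tested against tumor-bearing epithelium, where 13.2% of 17003 genes tested were called. Cdx2 was lower, at -5.47 ± 1.08 log2 units (adjusted p = 0.00923 in limma), and at -7.22 and -5.57 within the scan dates that held both groups. Without treated adenoma array 1 the call was lost (adjusted p = 0.103 in limma), with a difference of -4.12. In the same comparison Hoxa10 was at 1.31 ± 0.51 (adjusted p = 0.118) and Hoxb9 at -0.18 ± 0.72 log2 units (adjusted p = 0.885).

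Of 12 genes known as targets of the Cdx factors, all tested, 8 fell and none rose between adenoma and epithelium, where 12.6% of all genes tested fell, and their median difference was -1.78 against -0.17 for all genes. Mep1a, a brush border metalloprotease, was at -6.91 ± 0.43 log2 units, and Car1, a colonic carbonic anhydrase, at -4.52 ± 0.47. Vdr, the vitamin D receptor, was at -3.98 ± 0.47, and Hnf4a, an epithelial transcription factor, at -1.76 ± 0.36. Krt20, Muc2, Vil1 and Gucy2c were the other 4 that fell. Sis (-0.76 ± 0.32), Cdh17 (-0.63 ± 0.51), Isx (-1.80 ± 0.70) and Lct, a brush border disaccharidase with a difference of the opposite sign (2.02 ± 0.94), were not called. In contrast with Cdx2, Mep1a was low in both adenoma groups, at -2.25 and -3.51 on the 2 untreated arrays without an outlier spot and at -4.27 to -3.52 in treated adenoma, against 2.72 to 4.24 in epithelium. Against tumor-bearing epithelium 3 of the 12 were lower in untreated and 7 in treated adenoma, where 6.46% and 6.79% of all genes tested were lower. The difference between the counts of 3 and 7 was not tested. None was called between treated and untreated adenoma, where Muc2 had the lowest moderated t, at -5.46 ± 1.10 (adjusted p = 0.104 in limma).

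The counts that follow are read against the 9.14% of all genes tested that rose and the 12.6% that fell between the tissues. Among the partners that bind DNA with Hox proteins, Meis2 rose (2.95 ± 0.38) and Pknox2 fell (-1.72 ± 0.35 log2 units) of 8 tested. Of 23 Polycomb and trithorax genes, which keep Hox genes silent or active, 4 rose and 1 fell, with a median of 0.36, a share called close to the 21.8% of all genes. Cbx6 (2.31 ± 0.43), Bmi1 (1.39 ± 0.32) and Cbx2 (1.30 ± 0.35), subunits of Polycomb complexes, rose, and Cbx7, another such subunit, fell (-1.28 ± 0.38). Of 13 tested genes of retinoic acid signalling, which acts on Hox genes in the embryo, 3 rose and 5 fell. Aldh1a1, which makes retinoic acid, fell (-4.56 ± 0.34), while Aldh1a3 of the same family (3.00 ± 0.45) and the receptor Rarb (3.82 ± 0.71) rose. Of 15 tested factors of gut patterning other than the members, 2 rose and 2 fell. Gata5 (5.54 ± 0.36) and Evx1 (3.75 ± 0.59), a homeobox gene beside the Hoxa cluster, rose, and Foxa2 (-1.72 ± 0.31) was 1 of the genes that fell. In both other main comparisons none of the genes of these lists was called.

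Among the lists of markers of other cells, that of smooth muscle had the largest share called between the tissues, where 21.8% of all genes tested were called. Of 10 smooth muscle markers, 6 were lower in adenoma and none was higher, with a median of -1.55 log2 units. Their summed signal, relative to the 75th percentile of the array, was 16 to 17.2 in untreated adenoma, 32.9 to 38.6 in treated adenoma, 38.4 to 82.8 in tumor-free and 67.2 to 89.7 in tumor-bearing epithelium, and at least 9 of the 10 were well above background on every array. Of 9 tested leukocyte markers 2 were higher and none was lower, with summed signals of 65.8 to 76.2 in untreated and 65.0 to 124 in treated adenoma, 23.8 to 53.1 in tumor-free and 33.3 to 82.1 in tumor-bearing epithelium. Of 10 fibroblast markers 1 was higher and 1 lower, and the summed signals overlapped between all groups (98.1 to 175). Of 8 endothelial markers 1 was higher, and of 6 tested markers of enteric neurons and glia 1 was lower. Hox genes are also expressed in the muscle and connective tissue of the gut wall, and the part of these cells in the differences of Hoxa10, Hoxb2 and Cdx2 was not tested. Of 10 epithelial markers 3 were lower (Krt20, Krt19 and Vil1), with summed signals of 425 to 499 in untreated adenoma, 363 to 586 in treated adenoma, 570 to 765 in tumor-free and 477 to 907 in tumor-bearing epithelium.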

How the data were processed

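RNA was read on Agilent mouse 4x44 arrays, 1 colour each. The authors deposited scanner output of Agilent Feature Extraction 9.5.3, per the submitters' processing notes; its intensity columns hold spot brightness, and the processed intensity is already background-subtracted, per the file headers. The authors' deposited value table holds log2 values, used as an alternative only; its columns for tumor-bearing epithelium matched the scanner files in another order, which leaves the group unchanged.

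Here log2 of the processed signal minus the 75th percentile of each array was used, without spots flagged as outliers, and saturated spots were kept. Each gene was represented by the probe with the highest mean; genes were named through accessions, symbols or synonyms, and 6444 of 41174 probes had no name. Genes that were well above background throughout 1 or more of the groups compared were tested with limma 3.58.1 (R 4.3.3) in 1 fit over all groups, two-sided, adjusted by Benjamini-Hochberg over all genes tested. The fit had 6 residual degrees of freedom. Near-identical arrays were averaged; the submitters' protocol calls the replicates biological, so p-values rest on few samples, whose number limits the precision. A bound uses, per array, the lowest signal called well above background.

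The members and gene lists were chosen with earlier results of these data known. Members described singly were Cdx1, Cdx2, Hoxa13, Hoxb13, Hoxd13, every member called and the 2 highest and 2 lowest by moderated t in each of the first 3 comparisons; from other lists, at most 4 called genes. Alternatives covered background correction, normalization, filters, probes, blocks, array weights, the authors' table and left-out arrays. The fit was tested on simulated data. Motifs were searched in RefSeq promoters (25 windows for 23 member genes). Some genes that these rules would name are not reported here.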

Additional observations from a re-analysis of the deposited data

How the results depend on the processing

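The number of members called between adenoma and epithelium was 3 in the reported fit, 17 with each array as a sample, 16 with the replicate block, 18 with slide as a random block and 13 with array weights, and 1 to 10 with arrays or averaged samples left out (1 without untreated adenoma arrays 1 and 2, 10 without tumor-bearing array 4). Over all genes in that comparison, 4117 of 18913 were called as reported and 8993 with each array as a sample. The number was 9334 with the replicate block, 8894 with slide and 6836 with array weights, and 6305 of 19012 without tumor-bearing array 4. For treated minus untreated adenoma, 0 members became 5 with each array as a sample, with the replicate block, with scan date as a fixed block and with slide as a random block. Over all genes, 38 of 17629 became 2410, 2578, 2474 and 2459 in these fits. For untreated adenoma minus tumor-bearing epithelium, 2 became 4 with normexp, 10 with each array as a sample, 9 with the replicate block and with scan date, 12 with slide, 6 with array weights, 1 without the pair alike across groups and 1 to 7 with arrays left out. For treated adenoma minus tumor-bearing epithelium, 1 became 2 with the mean over probes, 11, 10, 8 and 8 with each array, replicate block, scan date and slide, 5 with array weights and 0 to 2 with arrays left out. Among all genes, 2015 of 17403 for untreated adenoma became 6842, 7367, 6772 and 7663 with each array, replicate block, scan date and slide. The 2244 of 17003 for treated adenoma became 7213, 7280, 5496 and 6607 in the same order. With array weights these were 5339 and 4279. For tumor-bearing minus tumor-free epithelium the number of members called was 0 under all 30 alternatives computed. These block fits take each array as a sample; otherwise the cause was not tested. Of 21 same-numbered pairs of arrays, 9 correlated above 0.1 (r from -0.30 to 0.52 over 13194 genes). Differently numbered pairs were not computed, so whether replicate numbers pair the arrays cannot be told from these values. The scan date fit could not give tumor-free epithelium. No difference recomputed under these settings (those of the members described singly) reversed its sign, but within single scan dates Cdx2, Hoxb13, Hoxb9 and Hoxa11 each had the opposite sign on 1 date of 3 between the tissues. Quantile normalization ended the calls of Cdx2 (adjusted p = 0.0641 in limma) and Hoxb2 (0.0851) between tissues, the authors' table that of Cdx2 (0.0579) and no filter that of Hoxb2 (0.0578).

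Over all genes, 4117 called between tissues became 2448 with a stricter filter, 2464 without the pair and up to 9334 with the replicate block, and 38 called with treatment became 0 to 2578. Against tumor-bearing epithelium, untreated adenoma ranged from 581 to 7663 and treated adenoma from 866 to 7280. The median of all genes between tissues was -0.17 as reported and -0.03 with quantile normalization or the authors' table.

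Signal over background limits Hoxb1, Hoxc8, Hoxc12 and Hoxc13, not well above background on any array, and gives Hoxd10, Hoxd11 and Hoxd13 a bound only in untreated adenoma. With 2 samples a group, differences of treatment rest on samples that departed from each other.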
